A study of Homo sapiens with 6 samples.

Results

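Translation initiation factors are the proteins that bring the initiator tRNA, the mRNA and the ribosomal subunits together at a start codon. Their genes were taken as every gene symbol that starts with EIF and a digit, leaving out the eIF2 kinases, the eIF4E-binding proteins and symbols that end in P and a number, the form used for pseudogenes. The rule found 54 of the 61806 genes in the table: 7 of eIF1, 12 of eIF2, 15 of eIF3, 13 of eIF4, 6 of eIF5 and the gene of eIF6. Of these, 49 were protein genes and 5 were antisense or divergent transcripts named after a neighbour. RNA was measured in HEK293 cells, an established human line derived from embryonic kidney that carries adenovirus DNA. The mutant group held 3 libraries from HEK293 cells given the rs16851030 variant of ADORA1, the adenosine A1 receptor gene, by homology-directed repair with CRISPR, and the other group held 3 libraries from wild-type HEK293 cells. The labels give 1 culture medium for both groups and no other treatment. They do not say whether the edited cells were 1 clone, several clones or a pool, so the p-values measure the spread between these libraries and cannot tell the variant from other differences between the cultures.

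Initiation begins when eIF2, loaded with GTP and the initiator tRNA, joins the small ribosomal subunit together with eIF1, eIF1A, eIF3 and eIF5. The eIF4 proteins bind the mRNA cap, unwind the leader and bring the mRNA to that complex, eIF5 and eIF5B drive GTP hydrolysis and subunit joining, and eIF2B recharges eIF2 with GTP. Phosphorylation of eIF2 turns it into an inhibitor of eIF2B, which lowers general protein synthesis while raising translation of ATF4, and mTORC1 controls the cap-binding step through the eIF4E-binding proteins.

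Counts assigned to genes totalled 16013460 to 20349609 per library. ADORA1 itself was low in both groups, at 0.51 to 0.65 FPKM (fragments per kilobase of exon, scaled to the library total) in the mutant and 0.41 to 0.59 in the wild type (edgeR adjusted p = 0.604 without an expression filter). Of 8 genes known from HEK293 cells, 5 reached a mean of 1 FPKM. Of those, VIM (-0.84), INA (-1.15), NEFM (-0.34) and KRT18 (-0.33) fell and LIN28B did not pass, while PAX2 and TUBB3 stayed at or below 0.27. KRT8, also below that mean, was higher in the mutant, at 1.09, 1.11 and 1.16 FPKM against 0.58, 0.43 and 0.50. Of 10 markers of blood, liver, endothelial, squamous, muscle, fibroblast and islet cells, none reached that mean in the 6 libraries, PTPRC, CD3E, HBB and INS were at 0 in every library, and the summed level of the list was 1.17 to 1.63 FPKM in the mutant and 0.77 to 0.97 in the wild type.

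Most initiation factor genes differed between mutant and wild-type cells, and more of them were lower than higher in the mutant. A mean of at least 1 FPKM over the 6 libraries was reached by 48 of the 54 genes. Of these, 25 fell, 16 rose and 7 stayed above an adjusted p of 0.05 (quasi-likelihood F-test of edgeR, Benjamini-Hochberg over all tested genes). The background was high: 58.0% of the 12550 tested genes passed, 29.4% as higher and 28.7% as lower, against 85.4% of the initiation factor genes. The groups did not overlap for 43 of the 48 genes (62.9% of all tested genes). The mutant values lay below all wild-type values for 25 of them and above for 18, where the same held for 28.1% and 34.8% of all tested genes. Changes were small. The median absolute log2 fold change was 0.26, close to the 0.25 of all tested genes, and the signed median was -0.14, against -0.00071 over all tested genes. Only EIF5 and the divergent transcript EIF3J-DT differed by at least 1.5-fold, 2 of 48 genes, where 16.0% of all tested genes did. In bulk RNA, a lower level in every cell and fewer cells with a high level cannot be told apart.

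**Figure D1:**
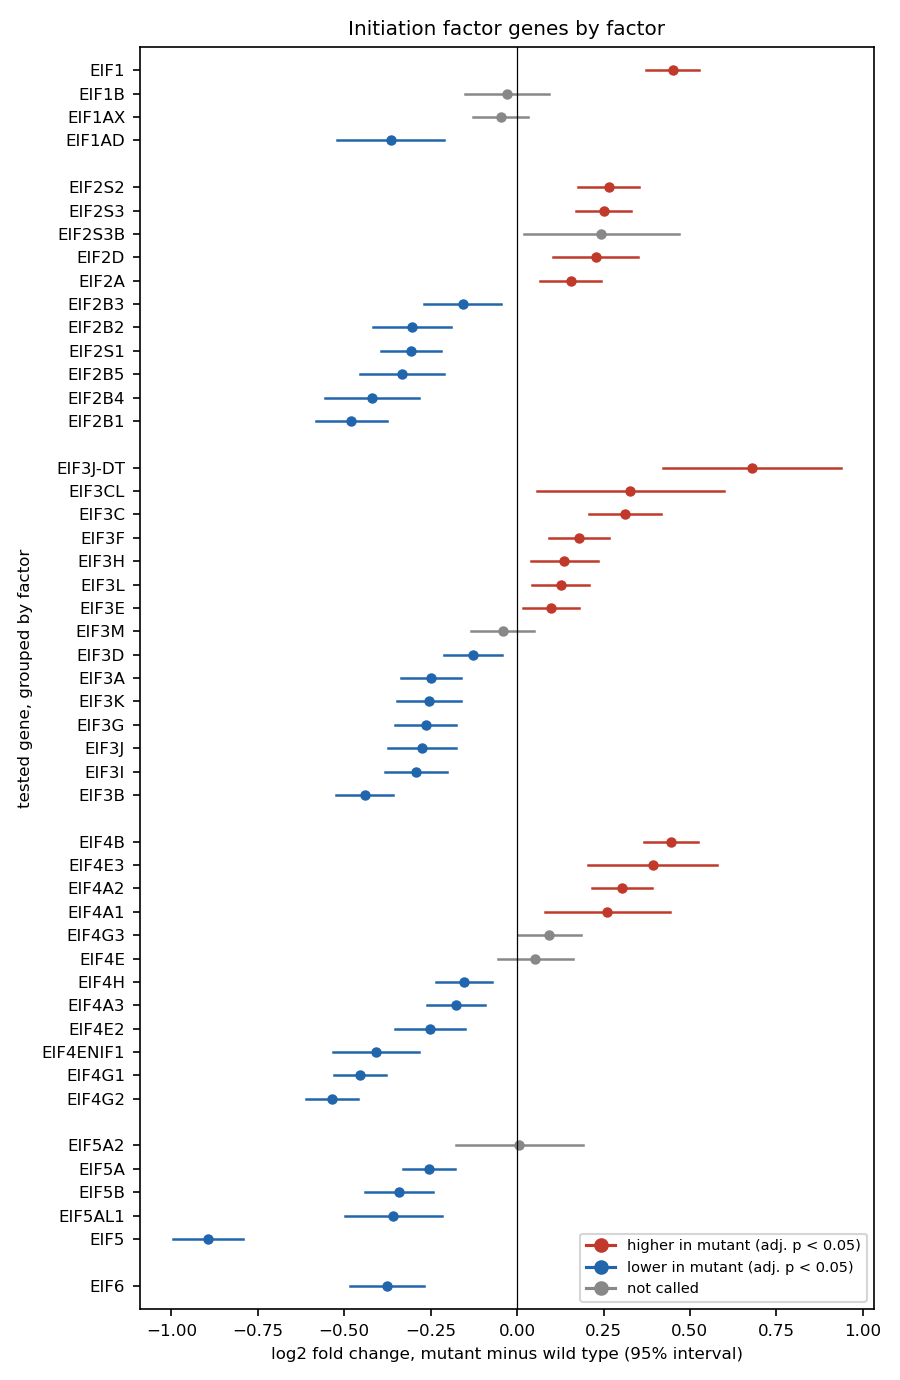
Log2 fold change (mutant minus wild type, points) with its 95% interval (lines) for the 48 tested genes, grouped by factor and sorted within it. Red genes were called higher, blue genes lower and grey genes neither; EIF5 stands lowest at -0.89 and EIF3J-DT highest at 0.68.

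Where the transcripts start was read for 47 of the 54 genes, from RefSeq starts on GRCh38.p14. The other 7, all tested, were EIF2S2, EIF3A, EIF3CL, EIF3E, EIF3G, EIF3H and EIF3L, of which 5 rose and 2 fell, and they enter no count of starts. Many mRNAs of the translation machinery begin with a C and a run of pyrimidines, the terminal oligopyrimidine tract, through which mTORC1 and LARP1 control their translation. A start with C at position 1 and at least 4 pyrimidines (C or T) after it was found for 10 of the 41 tested genes with a RefSeq start (24.4%), against 4.07% of 35116 RefSeq starts of all genes and 7.58% of 9167 tested genes. A gene counted if any of its RefSeq starts matched, whereas shares of all starts count single starts. Only the share of tested genes is a like comparison. These 10 starts are printed so that the letters of the tract can be read beside the values of each gene. Each shows 10 bases before the start and 20 from it, on the strand of the gene, with the tract in capitals.
EIF4B, chr12:53006446-53006475, plus strand: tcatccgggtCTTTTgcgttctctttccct
EIF4A2, chr3:186783567-186783596, plus strand: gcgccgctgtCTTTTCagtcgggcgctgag
EIF2S3, chrX:24054946-24054975, plus strand: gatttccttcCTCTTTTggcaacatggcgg
EIF2S3B, chr12:10505880-10505909, plus strand: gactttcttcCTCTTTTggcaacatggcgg
EIF2D, chr1:206612446-206612475, minus strand: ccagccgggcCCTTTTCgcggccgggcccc
EIF3F, chr11:7987327-7987356, plus strand: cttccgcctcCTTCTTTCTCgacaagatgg
EIF2A, chr3:150546777-150546806, plus strand: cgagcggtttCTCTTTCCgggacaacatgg
EIF3M, chr11:32583821-32583850, plus strand: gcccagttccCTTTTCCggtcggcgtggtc
EIF3D, chr22:36529147-36529176, minus strand: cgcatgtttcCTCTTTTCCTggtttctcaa
EIF3K, chr19:38619178-38619207, plus strand: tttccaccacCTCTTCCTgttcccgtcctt

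Of these 10 genes, 6 rose (EIF4B, EIF4A2, EIF2S3, EIF2D, EIF3F and EIF2A), 2 fell (EIF3D and EIF3K) and 2 did not pass. Their median log2 fold change was 0.20. Of the 31 tested genes without the tract, 5 rose, 21 fell and 5 did not pass, with a median of -0.28. Counting the 7 genes with no RefSeq start among those without the tract would give 10 that rose and 23 that fell of 38, with a median of -0.25. Over all tested genes with a RefSeq start the contrast was much smaller, with a median of 0.065 for the 695 genes that hold the tract (38.0% called higher, 24.7% lower) and -0.0065 for the 8472 that do not (30.6% called higher, 31.2% lower). Leaving out the cytosolic ribosomal protein genes, the medians were 0.060 and -0.0066. The tract was searched for after the fold changes had been seen, and the difference between the groups of initiation factor genes was not tested. A match gives only the letters at an annotated start. The tract was 1 of 5 patterns searched, each on these genes and on all tested genes. The E-box letters CACGTG, read by MYC among other factors, occurred on either strand within 250 bases before and 50 after the start of 10 of the 41 genes, of which 2 rose and 5 fell (13.0% of tested genes with a RefSeq start hold it, and 7.26% of all RefSeq starts). Of all tested genes with these letters, 27.2% were called higher and 35.9% lower. CCGGAAG, the letters of ETS factors, occurred for 11 genes, of which 1 rose and 7 fell (23.7% of tested genes, 10.3% of all starts). Of all tested genes with these letters, 22.4% were called higher and 38.2% lower. TGATGNAA, the letters of ATF4 and CEBP sites, occurred for 1 gene (2.49% and 3.62%), and TGACGTCA, the letters of CREB sites, for 0 (4.04% and 1.85%).

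**Figure D2:**
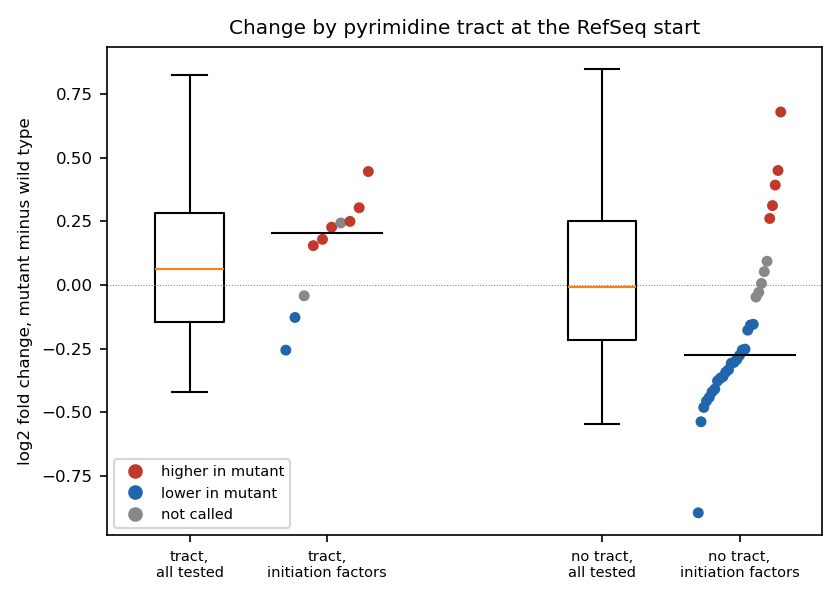
Log2 fold change of initiation factor genes (points, coloured by call, with their median as a line) with and without a pyrimidine tract at a RefSeq start, beside all tested genes of each kind (boxes from the 25th to the 75th percentile, whiskers from the 5th to the 95th). The medians of the points are 0.20 with the tract and -0.28 without it.

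Among the factors that select the start codon, EIF1 rose and EIF5 fell. EIF1 keeps the scanning complex open and rejects poor start codons, while EIF5 activates GTP hydrolysis by eIF2 at the start codon and competes with EIF1 for the complex. EIF1 (ENSG00000173812, GRCh38 chromosome 17, 41688885 to 41692668, plus strand) stood at 211, 207 and 207 FPKM in mutant cells, against 146, 150 and 152 in wild-type cells. All mutant values lay above all wild-type values, and the gene rose by 0.45 on the log2 scale (SE 0.037, adjusted p = 1.51e-08). EIF5 (ENSG00000100664, chromosome 14, 103333544 to 103345025, plus strand) was at 31.6, 34.8 and 30.0 FPKM in the mutant and at 57.6, 58.9 and 58.6 in the wild type. It fell by 0.89 on the log2 scale (SE 0.048, adjusted p = 8.52e-11), the smallest adjusted p of the 48 genes and the largest absolute change among the protein genes.

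The relatives of EIF1 did not rise with it. EIF1B, a paralog of EIF1, was at 35.8 ± 1.70 FPKM (SD, n = 3) in the mutant and 35.7 ± 2.14 in the wild type, with a 95% interval of -0.15 to 0.09 for the log2 fold change. The ratio of EIF1B to EIF1 was 0.173, 0.164 and 0.179 in mutant cells, against 0.234, 0.233 and 0.251 in wild-type cells. The ratio groups did not overlap, and the exact two-sided permutation test gave p = 0.1, the smallest that 3 against 3 libraries allow (0.14 adjusted over 7 pairs). EIF1AX, the eIF1A gene that partners eIF1 on the small subunit, was at 88.9 ± 0.516 and 89.8 ± 2.62 FPKM (SD, n = 3), with an interval of -0.13 to 0.03. Reads may be shared with its pseudogene EIF1AXP1, listed at 130 FPKM in the mutant and 149 in the wild type. Of the pseudogenes left out, 9 had a mean of at least 1 FPKM. EIF4BP7 (0.57), EIF2S2P4 (0.34) and EIF4BP6 (0.31) were called higher, and EIF4A1P10 (-0.37) and EIF1AXP1 (-0.23) lower. EIF3FP3, EIF4EP2, EIF4HP1 and EIF5AP4 were not called. Sharing of reads with their parent genes was not tested. EIF1AD, a nuclear protein with an eIF1A-like fold, fell by 0.37 (11.8 ± 0.701 against 14.9 ± 1.40 FPKM, SD, n = 3).

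**Figure D3:**
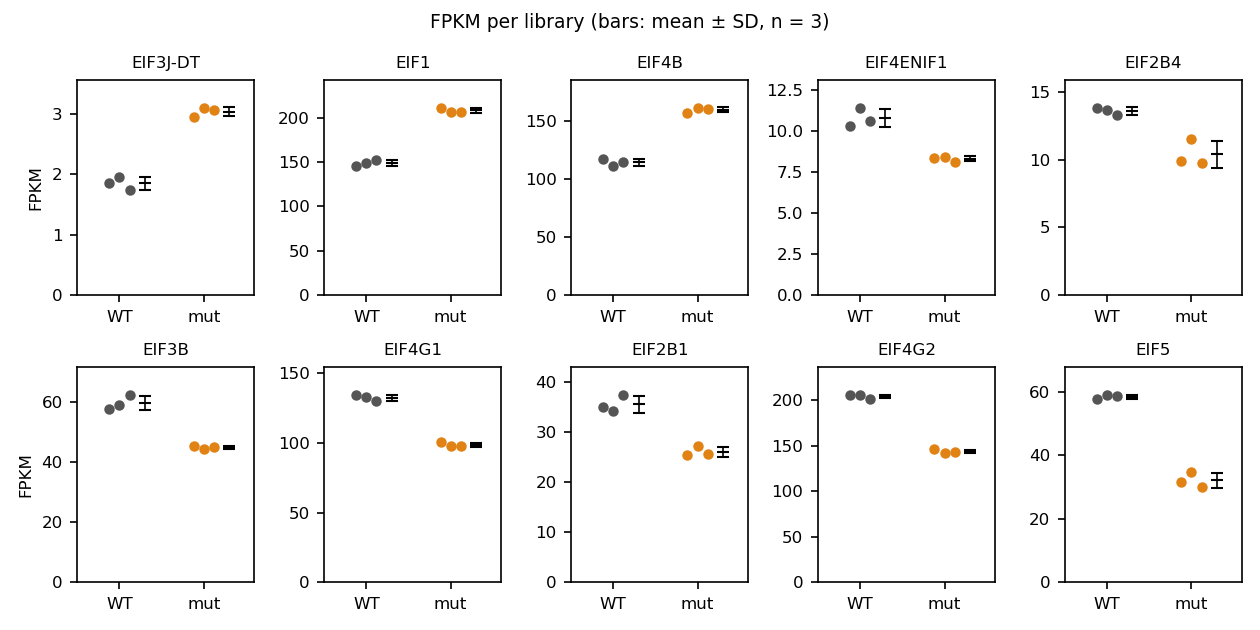
FPKM in each library (points; WT, wild type; mut, mutant) with mean and SD (bars) for the 10 called genes whose absolute log2 fold change was at least 0.4. In each panel the mutant points lie wholly above or wholly below the wild-type points.

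The genes of eIF2 moved in opposite directions. EIF2S1 encodes the alpha subunit, which carries the regulatory phosphorylation site, EIF2S2 the beta subunit and EIF2S3 the gamma subunit that binds GTP and the initiator tRNA. EIF2S1 was at 27.5, 27.4 and 27.0 FPKM in the mutant and at 32.3, 33.7 and 33.1 in the wild type, and fell by 0.31 (adjusted p = 6.04e-06). EIF2S2 rose by 0.26, from 81.4 ± 2.73 to 100.1 ± 2.11 FPKM (SD, n = 3), and EIF2S3 by 0.25, from 125 ± 1.65 to 152 ± 4.76. The mutant and wild-type libraries did not overlap for any of the 3 subunits, which held for 62.9% of all tested genes. EIF2S3B, a relative of EIF2S3 with the same letters in its tract, had a log2 fold change of 0.24 and did not pass (adjusted p = 0.0594), although it did in 4 of 14 alternatives, and 26.8% of its 50-base words also occur in EIF2S3 transcripts. EIF2A and EIF2D, which can deliver initiator tRNA without eIF2 or act after termination, rose by 0.15 and 0.23. On the opposite strand, EIF2A overlaps SERP1, which rose by 0.14 and was listed at 31.6 FPKM in the mutant and 28.0 in the wild type. EIF2D so overlaps RASSF5, which rose by 0.56.

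All 5 genes of eIF2B, the exchange factor that recharges eIF2, fell, where 28.7% of tested genes were called lower. EIF2B1 encodes the alpha subunit, which with the beta (EIF2B2) and delta (EIF2B4) subunits forms the regulatory core that senses phosphorylated eIF2. EIF2B3 (gamma) and EIF2B5 (epsilon) form the catalytic part. EIF2B1 was at 25.4, 27.1 and 25.5 FPKM in the mutant and 35.0, 34.1 and 37.3 in the wild type, and the log2 change was -0.48 (SE 0.049, adjusted p = 2.07e-07). EIF2B4 was at 9.92, 11.5 and 9.74 FPKM in the mutant and 13.8, 13.7 and 13.3 in the wild type, a change of -0.42 in which mutant replicate 2 lay nearest to the wild type. EIF2B5 changed by -0.33, EIF2B2 by -0.30 and EIF2B3 by -0.16. The groups were separate for each of the 5 genes, as they were for 62.9% of all tested genes. The ratio of EIF2B4 to EIF2B5 overlapped between the groups (exact permutation p = 0.4), with a log2 difference of -0.09. EIF2B3 was the weakest of the calls, with an adjusted p of 0.0171, and lost it in 5 of 15 alternatives, with library totals as scaling (0.0615), quantile normalization (0.0687) or a mean of at least 5 FPKM (0.0651), and without mutant replicate 1 (0.0726) or wild-type replicate 3 (0.0628). GTF2H3, which overlaps EIF2B1 on the opposite strand, rose by 0.38, and GTF3C2-AS2, which so overlaps EIF2B4, by 0.27. No source used here gives the strand setting of the counting, and 19 of the 48 tested genes overlap an opposite-strand gene with a mean of at least 1 FPKM.

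The subunits of eIF3, the large scaffold that binds the small ribosomal subunit, moved in both directions. Of the 13 subunit genes a to m, 5 rose, 7 fell and 1 did not pass, where 29.4% of all tested genes were called higher and 28.7% lower. The 15 tested genes named EIF3 also include the copy EIF3CL and the noncoding EIF3J-DT, both called higher. The genes of subunits a, b, g and i all fell, while that of c, which belongs with them to the core shared with yeast, rose. EIF3B was at 45.5, 44.4 and 44.9 FPKM in the mutant and 57.7, 59.0 and 62.3 in the wild type, and the log2 change was -0.44 (SE 0.039, adjusted p = 4.03e-08). EIF3I, a WD-repeat subunit, fell by 0.29, EIF3G, an RNA-binding subunit, by 0.26, and EIF3A, the largest subunit, by 0.25 (126 ± 5.91 to 108 ± 2.22 FPKM, SD, n = 3). EIF3J, a loosely bound subunit at the decoding centre, fell by 0.28.

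Of the other core subunits, c, e, f, h and l were higher and d and k lower. EIF3C rose by 0.31 (13.2 ± 0.499 to 16.8 ± 0.646 FPKM, SD, n = 3), EIF3F by 0.18, EIF3H by 0.14, EIF3L by 0.13 and EIF3E by 0.097. EIF3K fell by 0.26 and EIF3D, which can itself bind the cap of some mRNAs, by 0.13. EIF3M had a log2 fold change of -0.04 with an interval of -0.13 to 0.05. This grouping by place in the complex was made after the values had been seen. The smaller of these calls were lost under some settings. EIF3E lost its call in 6 of 15 alternatives, EIF3D in 6 and EIF3H in 3, with adjusted p of up to 0.329, 0.525 and 0.0947.

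The chromosome on which a subunit gene lies moved with several of these values. EIF3A lies on chromosome 10, where the other tested genes had a median log2 fold change of -0.36, and EIF3C and its copy EIF3CL lie on chromosome 16, where the median was 0.29. EIF3D and EIF3L share chromosome 22, with a median of -0.16, and changed by -0.13 and 0.13. EIF2S2 (0.26) and EIF6 (-0.38) share chromosome 20, with a median of -0.13. The medians of the chromosomes of EIF1, EIF5, EIF4B, EIF4G1, EIF4G2, EIF2B1 and EIF3B lay between -0.04 and 0.02. The part of these chromosome medians in the values of single genes was not tested. EIF3CL was called higher (log2 fold change 0.33, adjusted p = 0.0367) but lost the call in 8 of 14 alternatives (up to an adjusted p of 0.172), and 97.2% of its 50-base words occur in EIF3C transcripts, so reads of the pair could have been split or dropped in counting.

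**Figure D4:**
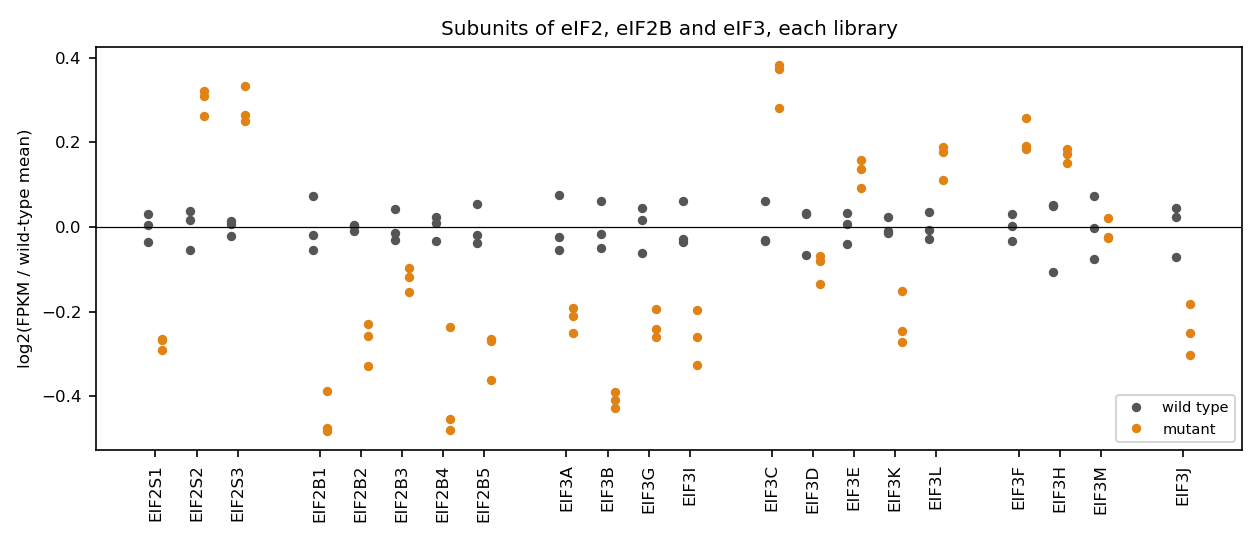
Log2 of FPKM over the wild-type mean in each library (grey, wild type; orange, mutant) for subunits of eIF2, eIF2B and eIF3, the last ordered as a-b-g-i, c-d-e-k-l, f-h-m and j. The 5 eIF2B genes and the a-b-g-i genes lie below the wild-type points, while c, e, f, h and l lie above them.

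EIF3J-DT, a noncoding transcript that starts beside EIF3J and runs the other way, rose while EIF3J fell. It was at 2.95, 3.09 and 3.05 FPKM in the mutant and at 1.85, 1.95 and 1.74 in the wild type, which are 169 to 208 and 107 to 115 counts. It rose by 0.68 on the log2 scale (SE 0.12, adjusted p = 1.21e-04). It overlaps CTDSPL2 on the opposite strand, listed at 9.90 FPKM in the mutant and 8.39 in the wild type.

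Of the 12 tested eIF4 genes, 4 rose, 6 fell and 2 did not pass. Over all tested genes, 29.4% were called higher and 28.7% lower. Of the 3 scaffold genes, EIF4G1 and EIF4G2 fell and EIF4G3 did not pass, and of the 3 EIF4A helicase genes, EIF4A1 and EIF4A2 rose and EIF4A3 fell. EIF4G1, the main scaffold that joins the cap-binding protein to eIF3, was at 101, 97.9 and 98.0 FPKM in the mutant and 134, 133 and 130 in the wild type, so it changed by -0.45 on the log2 scale (SE 0.036, adjusted p = 1.01e-08). EIF4G2 (DAP5), a scaffold that lacks the part binding the cap-binding protein, was at 146, 143 and 144 FPKM in the mutant and 205, 206 and 202 in the wild type, and fell by 0.54 (adjusted p = 1.11e-09). EIF4G3, the third scaffold gene, was at 17.5 ± 0.450 and 16.1 ± 0.670 FPKM (SD, n = 3), with a log2 fold change of 0.09 that did not pass (adjusted p = 0.0744), although it was called higher in 6 of 15 alternatives. The ratio of EIF4G3 to EIF4G1 was 0.176 to 0.179 in the mutant and 0.118 to 0.125 in the wild type (exact permutation p = 0.1, 0.14 adjusted over 7 pairs). EIF4G2 overlaps CTR9 on the opposite strand, which fell by 0.31.

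EIF4B, which stimulates the helicase and carries a pyrimidine tract at its start, was at 157, 162 and 161 FPKM in the mutant and 118, 111 and 115 in the wild type. It rose by 0.45 (SE 0.037, adjusted p = 1.73e-08), with every mutant library above every wild-type library. EIF4A2, a helicase of eIF4F, rose by 0.30 (40.9 ± 0.447 to 51.7 ± 1.85 FPKM, SD, n = 3), as did the opposite-strand gene RFC4 that overlaps it (0.33), and EIF4A1, its close paralog, by 0.26. EIF4A1 was listed at only 4.58 ± 0.282 FPKM in mutant and 3.74 ± 0.215 in wild-type cells (SD, n = 3), and 84.1% of its coding bases in GENCODE 29 also belong to the readthrough gene SENP3-EIF4A1. Counting that drops reads shared by overlapping genes would lower its level. EIF4A1 and the ratio of EIF4A2 to EIF4A1 (10.4 to 12.2 in the 6 libraries, overlapping) are therefore uncertain. EIF4A1P10, a pseudogene of EIF4A1, was listed at 10.5 FPKM in the mutant and 13.3 in the wild type, and fell by 0.37. Sharing of its reads with EIF4A1 was not tested, so the direction of EIF4A1 is uncertain as well. EIF4H, a smaller helicase cofactor, fell by 0.15, and EIF4A3, the helicase of the exon junction complex, by 0.18.

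The cap-binding proteins themselves changed little or in both directions. EIF4E, the cap-binding subunit, was at 16.8 ± 0.255 FPKM in the mutant and 15.8 ± 0.912 in the wild type (SD, n = 3). Its log2 fold change was 0.05, with an interval of -0.06 to 0.16. Its pseudogene EIF4EP2 was listed at 31.4 FPKM in the mutant and 32.7 in the wild type, and sharing of reads with it was not tested. EIF4E2, which binds the cap without recruiting EIF4G1, fell by 0.25 (9.25 ± 0.130 to 7.95 ± 0.335 FPKM), and the low EIF4E3 rose by 0.39 (2.73 ± 0.414 to 3.67 ± 0.221 FPKM, SD, n = 3). EIF4E3 overlaps GPR27 on the opposite strand, which rose by 0.53 and was higher than EIF4E3, at 14.9 FPKM in mutant and 10.1 in wild-type cells. The ratio of EIF4E2 to EIF4E was 0.454 to 0.493 in the mutant and 0.556 to 0.612 in the wild type, without overlap (exact permutation p = 0.1). EIF4ENIF1, which carries EIF4E into the nucleus, was at 8.33, 8.43 and 8.12 FPKM in the mutant and 10.3, 11.4 and 10.6 in the wild type, a log2 fold change of -0.41. It overlaps DRG1 on the opposite strand, listed at 69.7 FPKM in the mutant and 101 in the wild type, and lies on chromosome 22.

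Of the 5 tested genes named EIF5, 4 fell and EIF5A2 did not pass, where 28.7% of all tested genes were called lower. EIF6 also fell. EIF5B, the GTPase of subunit joining, fell by 0.34 (34.7 ± 2.04 to 28.0 ± 0.499 FPKM, SD, n = 3). EIF6, which keeps free large ribosomal subunits apart from small ones, was at 37.9, 40.0 and 39.5 FPKM in the mutant and 50.6, 49.7 and 48.7 in the wild type, a log2 fold change of -0.38 (adjusted p = 6.03e-06). EIF5A, the hypusine-bearing factor that relieves stalled ribosomes, had the highest level of the 54 genes, at 364, 375 and 362 FPKM in the mutant and 431, 422 and 431 in the wild type, and fell by 0.26 (adjusted p = 9.84e-06). Its paralog EIF5A2 was at 3.47 ± 0.235 and 3.39 ± 0.0306 FPKM (SD, n = 3), with an interval of -0.18 to 0.19. EIF5AL1, a copy of EIF5A on chromosome 10, fell by 0.36, where the other tested genes of that chromosome had a median of -0.36, and 11.6% of its 50-base words occur in EIF5A transcripts.

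The ratio of EIF5A2 to EIF5A was 0.00884 to 0.0103 in the mutant and 0.00780 to 0.00801 in the wild type (exact permutation p = 0.1). Of the 7 pairs of related genes compared, 5 did not overlap between the groups, and the exact permutation test cannot reach an adjusted p of 0.05 with 3 libraries a group. The ratio of EIF4G2 to EIF4G1 differed least of those 5, at 1.45 to 1.47 in the mutant and 1.53 to 1.55 in the wild type.

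The order of levels is limited by the gene lengths used. EIF5A had the highest FPKM in every library, but the exonic length in the table is the union of all annotated exons, 37761 bases for EIF3E and 15136 for EIF3F, which lowers their FPKM to 10.6 to 15.6 beside 99.1 to 132 for EIF3A and EIF3D. Fold changes within a gene do not depend on that length. The 6 genes below the mean of 1 FPKM were EIF1AY, EIF4E1B, EIF1AX-AS1, EIF1B-AS1, EIF2B5-DT and EIF5-DT. EIF4E1B had 6, 6 and 8 counts in mutant cells against 1, 1 and 2 in wild-type cells, and EIF2B5-DT had 5, 8 and 13 against 4, 0 and 4. In the fit without an expression filter, EIF4E1B was called higher at an adjusted p of 0.0476 in edgeR, and EIF2B5-DT (0.0670) and the 3 other noncoding transcripts were not called. EIF4E1B had 1 to 8 counts per library, which limits the precision of its fold.

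Counts of partner genes in the lists that follow stand against 29.4% called higher and 28.7% called lower over all tested genes. Of the 4 eIF2 kinase genes, EIF2AK1 (0.19), EIF2AK4 (0.15) and EIF2AK2 (0.14) rose, while EIF2AK3 did not pass. ATF4, the factor whose translation rises when eIF2 is phosphorylated, stood at 375 ± 18.4 FPKM against 221 ± 7.23 in wild-type cells (SD, n = 3) and rose by 0.73 on the log2 scale (adjusted p = 2.22e-10). PPP1R15A, which directs the phosphatase to eIF2, fell by 0.25 and the catalytic subunit gene PPP1CA by 0.36, while PPP1R15B (-0.05), PPP1CB (-0.07) and PPP1CC (0.02) did not pass. With ATF4, 1 of these 6 genes rose and 2 fell.

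The partners of the cap-binding step included larger changes than the factors themselves. EIF4EBP1, which binds EIF4E and blocks its contact with EIF4G1 unless mTORC1 phosphorylates it, reached 156 ± 3.74 FPKM in mutant cells, against 80.9 ± 4.96 in wild-type cells (SD, n = 3), a log2 change of 0.91 (adjusted p = 1.09e-10). EIF4EBP2 fell by 0.36, with chromosome 10 at the same median. Of 13 genes of mTORC1, S6 kinase and MNK, 3 rose and 6 fell. The largest changes were in DDIT4 (2.50, on chromosome 10), DEPTOR (0.77) and AKT1S1 (-0.58). These encode inhibitors of mTORC1, as do TSC1 (-0.30) and TSC2 (-0.15), so genes of its inhibitors moved in both directions. Of 8 genes of poly(A) binding and its regulators, 4 rose and 3 fell, with PABPC1 at 0.21, PABPC4 at -0.46 and LARP4B, on chromosome 10, at -0.38.

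Of 12 further initiation proteins, 0 rose, 9 fell and 3 did not pass, with a median of -0.15. They included ABCF1 (-0.38), which works with eIF2 on ribosomes, and the leader helicases DHX29 (-0.27) and DDX3X (-0.24). Genes of proteins that can hold initiation back also fell, namely BZW1 (-0.24), BZW2 (-0.17), GIGYF2 (-0.16) and PDCD4 (-0.13), while CYFIP1 (0.097) did not pass. DHPS and DOHH, the enzymes that make the hypusine of EIF5A in successive steps, changed in opposite directions, by 0.48 and -0.92. Of 10 tested elongation factor genes, 5 rose and 3 fell, with EEF1A2 at 1.21 and EEF2K, the kinase that inhibits EEF2, at 1.18 (it lies on chromosome 16). Of 4 tested release and recycling genes, GSPT1 rose (0.26, chromosome 16) and ETF1 (-0.26) and PELO (-0.34) fell. Of 9 mitochondrial translation factors, 7 fell, among them MRRF (-0.26) and MTRF1 (-0.33), and TUFM, on chromosome 16, rose by 0.35. Over these 70 tested partner genes, 20 were called higher, 34 lower and 16 neither, with a median of -0.098 (29.4% and 28.7% of all tested genes were called higher and lower).

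**Figure D5:**
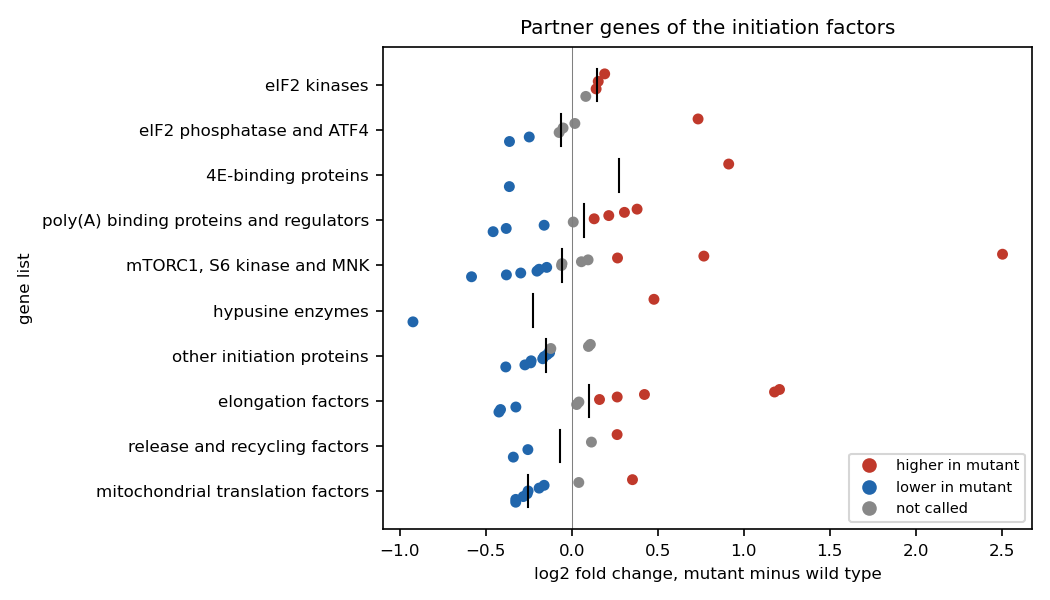
Log2 fold change of each tested partner gene by list (points coloured by call; the black line is the list median). The 12 further initiation proteins hold no red point, and DDIT4 at 2.50 is the point farthest to the right.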

How the data were processed

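Poly(A) RNA of 6 HEK293 libraries, 3 mutant and 3 wild type, grouped by title, was analysed. The authors' pipeline, per the submitters' processing notes, names GRCh38, HISAT2 (2.0.1), HTSeq and cutadapt. No source used here gives the annotation release or strand setting. The deposited file holds raw counts per gene and FPKM, which were recomputed from the counts, exonic lengths and library totals within 0.011 for 100% of values. Genes whose FPKM averaged 1 or more were tested on counts with edgeR 4.0.16 (TMM scaling, quasi-likelihood F-test, two-sided, Benjamini-Hochberg over 12550 genes). SE is the absolute log2 fold change over the root of F. The common biological coefficient of variation was 0.0478. Depth was 16013460 to 20349609 counts per library, and no libraries were duplicates (chi-square per degree of freedom at least 2.28). Fits were tested on simulated data.

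All tested members are named, with values per library for those called at an absolute log2 fold change of at least 0.4 and for the smallest adjusted p of each factor; EIF2S1, EIF5A and genes below 1 FPKM were added after their values were seen. In partner lists, genes with small adjusted p and large changes are named, and others were chosen after their values were seen. Members, lists and pairs were chosen with earlier results of these data known. Ratios used exact permutation tests. RefSeq starts were matched by symbol, and shared 50-base words came from GENCODE 29 transcripts. Alternatives used limma 3.58.1 on log2(FPKM + 1) or log2(FPKM + 0.1), computed from the deposited FPKM, and DESeq2 1.42.0.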

Additional observations from a re-analysis of the deposited data

How the results depend on the processing

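Over 15 alternatives the initiation factor genes called higher numbered 11 to 18 and those called lower 22 to 25. The median log2 fold change of the tested initiation factor genes was -0.17 to -0.056. It came nearest to that of all tested genes with quantile normalization, at -0.056 against -0.020 (main fit, -0.14 against -0.00071). Of the 41 called genes, 31 stayed called in every alternative that tested them, and the calls lost in at least 1 were EIF2A, EIF2B3, EIF3CL, EIF3D, EIF3E, EIF3H, EIF3L, EIF4A1, EIF4E3 and EIF4H. No called gene changed direction. Of the 7 genes that did not pass, EIF4G3 was called higher in 6 of 15 alternatives and EIF2S3B in 4 of 14. Without an expression filter 11 were higher, and without mutant replicate 3 12 were. The replicate block gave 14 higher and 25 lower; same-numbered libraries of the groups deviated with correlations of 0.0039, -0.0435 and -0.0128 and share only a number. Among genes that did not pass, the sign turned for EIF1AX (0.058 with quantile normalization, 0.00020 at a mean FPKM of at least 5), EIF3M (0.052 and 0.0051), EIF5A2 (-0.077 with quantile normalization, -0.031 without a filter, -0.050 to 0.040 leaving out 1 library) and EIF1B (0.0085 with library totals, 0.0046 and 0.0047 in limma with pseudocounts of 1 and 0.1, 0.058 with quantile normalization, 0.019 at a mean of at least 5, and -0.066 to 0.016 leaving out 1 library). The difference in log2 ratio of EIF4A2 to EIF4A1 was -0.012 to 0.082 leaving out 1 library. The cause of these turns was not tested.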
